A study of Mus musculus with 2 samples.

Results

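The cyclins and kinases that drive the cell cycle were examined in mouse embryos injected with siRNA against Dnmt1, the maintenance DNA methyltransferase. The set comprised 10 genes, taken by symbol from a table of 23418 rows: the cyclin genes Ccna2, Ccnb1, Ccnb2, Ccnd1, Ccnd3, Ccne1 and Ccne2, the cyclin-dependent kinase (CDK) genes Cdk1 and Cdk2, and the phosphatase gene Cdc25a. All 10 had a row. The siDnmt1 group was 1 library from a pool of 20 siDnmt1-injected embryos, and the scrambled group was 1 library from a pool of 20 embryos that received a scrambled siRNA. Both pools were of the C57BL/6 background and were collected at the 4 to 8-cell stage, and both were therefore injected embryos. With 1 library per group no difference has a replicate check and no p-value was computed. Intervals are 95% intervals of counting error alone, and PCR copies without molecular identifiers are not independent molecules.

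A cyclin binds and switches on a CDK, and the level of each cyclin is set by its synthesis and its destruction through ubiquitin. D-type cyclins act with Cdk4 and Cdk6 in G1, E-type cyclins with Cdk2 at the entry into S phase, cyclin A with Cdk2 and then Cdk1, and B-type cyclins with Cdk1 in mitosis. Wee1 and related kinases hold the cyclin-CDK complex inactive by phosphorylating the kinase, and Cdc25 phosphatases remove those phosphates. Cleavage divisions of the early embryo split the cytoplasm of the egg into smaller cells without growth between divisions.

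The libraries held 12236615 counts (siDnmt1) and 11675483 counts (scrambled), of which the ribosomal RNA precursor Rn45s took 37.3% (siDnmt1) and 29.9% (scrambled). Dnmt1 itself had 687 counts in siDnmt1 and 847 in scrambled, 1.23-fold lower (1.11 to 1.37), and 38.3% of all genes had a ratio as low or lower. Markers of the preimplantation embryo were present, with 1489 counts of Pou5f1 in siDnmt1 and 2152 in scrambled, and 12 of 15 such markers averaged 20 counts or more. Of 12 oocyte and egg markers 6 averaged that many, with a median log2 ratio of 0.43 in siDnmt1 over scrambled, and the whole list summed to 425 counts in siDnmt1 and 462 in scrambled. Their part in the results was not tested. Markers of cumulus and granulosa cells, which surround the egg, were at 0 in both libraries for 13 of 13 genes.

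Of the 10 genes, 1 was at least 2-fold lower in siDnmt1 (Cdk1) and 0 were higher by that much. Among the 7315 genes whose mean over the libraries reached 20 counts, 16.7% were lower by 2-fold or more and 12.5% were higher by 2-fold or more, so a share of 1 in 10 lay near the background. These calls used log2((siDnmt1 + 5)/(scrambled + 5)), whereas a fold is the plain quotient of the 2 counts. The median log2 ratio of the 10 genes was -0.07, beside -0.02 over all genes compared. All 10 reached that mean, and the counting interval of the ratio lay below 1 for 5 of them, above 1 for 3 and across 1 for 2. The same interval lay below 1 for 37.0% and above 1 for 35.4% of all genes compared, 72.4% in all. Outside Rn45s, the 10 genes together held 0.296% of counts in siDnmt1 and 0.359% in scrambled, most of them counts of Ccna2. The gene Odc1 alone took 1265701 of the 7670163 counts outside Rn45s in siDnmt1 and 2005935 of 8187941 in scrambled. Both percentages thus depend on Odc1 too.

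**Figure D1:**
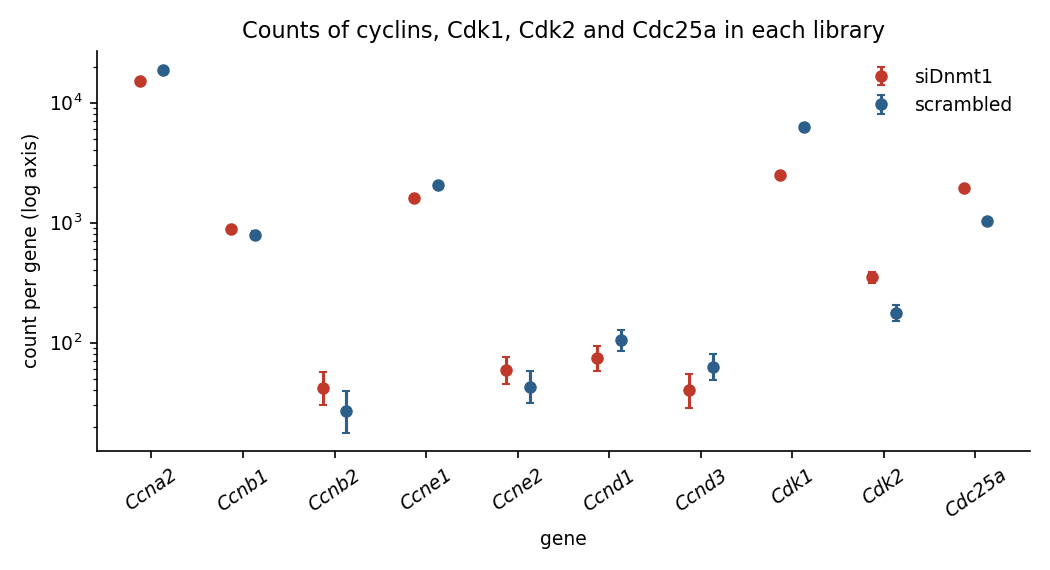
Counts of the 10 genes in the siDnmt1 library (red) and the scrambled library (blue), on a log axis, with 95% Poisson intervals as bars. Cdk1 lies lower in siDnmt1, at 2511 against 6319, whereas Cdk2 and Cdc25a lie higher, at 351 against 177 and 1929 against 1026.

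The kinases differed in opposite directions. Cdk1, the kinase that drives mitosis and the one CDK known to be essential for cell division in the mouse, had 2511 counts in siDnmt1 and 6319 in scrambled. It was 2.52-fold lower in siDnmt1 (2.40 to 2.64), with a log2 ratio of -1.33, and 10.9% of all genes compared were as low or lower. Cdk2, the kinase of S phase entry, had 351 counts in siDnmt1 and 177 in scrambled, 1.98-fold higher (1.65 to 2.39), with 12.97% of genes at or above its log2 ratio of 0.97. Cdc25a, the phosphatase that activates Cdk2 and Cdk1, had 1929 counts in siDnmt1 and 1026 in scrambled, 1.88-fold higher (1.74 to 2.03), with 14.5% of genes at or above its log2 ratio of 0.91. Cdk2 and Cdc25a thus lay just inside the 2-fold limit. Both passed it when library totals without Rn45s were made equal, at log2 ratios of 1.06 and 1.001. Those totals include the large and unequal counts of Odc1 given above. When totals with Rn45s were made equal, both stayed inside the limit, at 0.90 (Cdk2) and 0.84 (Cdc25a). Since each library is a pool of whole embryos, fewer cells holding a transcript and less of it per cell cannot be told apart. The share of each stage from 4 to 8 cells within a pool is not given. A difference in stage between the pools therefore cannot be told apart from the siRNA either. Cdk2 overlaps Pmel on the opposite strand over 837 bases of the annotation. Pmel, a pigment cell gene, had 12 counts in siDnmt1 and 86 in scrambled. No source used here states the strand setting of the counting, so reads in the overlap cannot be assigned to either gene.

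**Figure D2:**
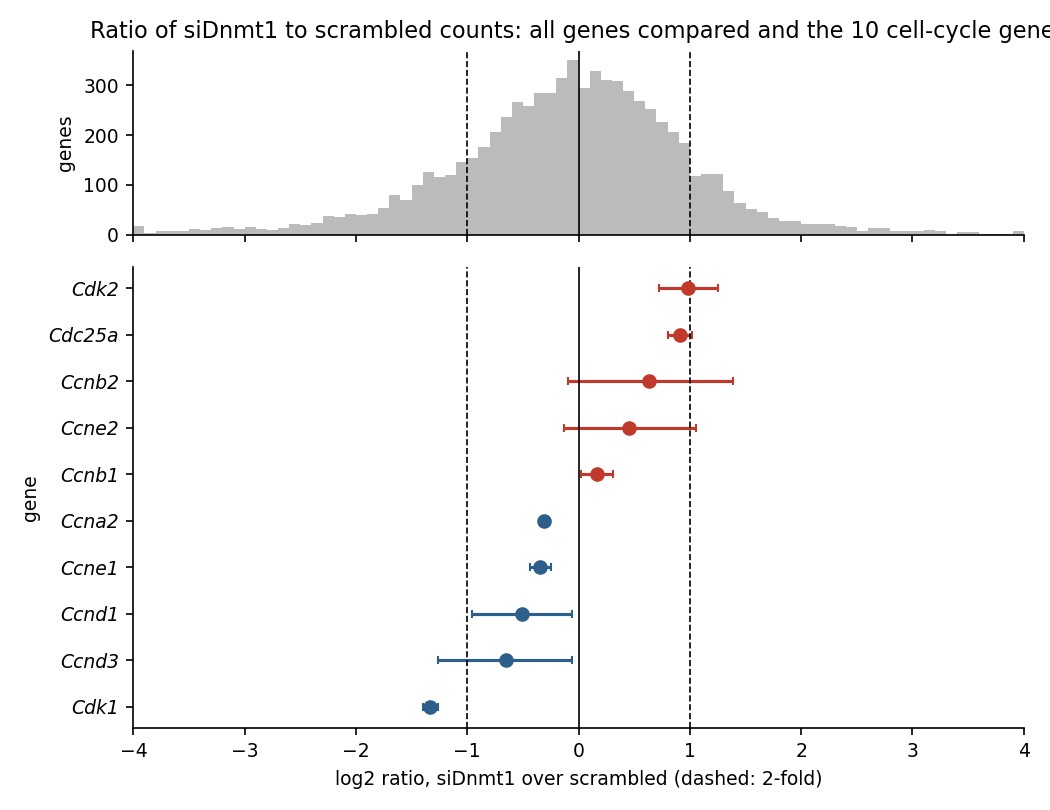
Upper panel, number of genes by log2 ratio of siDnmt1 over scrambled with 5 added to each count, for the 7315 genes compared, with values beyond the axis placed in the end bins. Lower panel, the log2 of the plain ratio of each of the 10 genes with its 95% counting interval, where only Cdk1 lies beyond the dashed 2-fold lines.

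The promoters of these 3 genes are shown because they stand farthest from equality among the 10 and because the siRNA targets an enzyme that acts on CG dinucleotides. Methylation was not measured in these libraries. The sequences are the 250 bases before the RefSeq start in GRCm38.p6, a later build than the mm9 named for the counts, and were matched by symbol. That of Cdk1 lies at chr10:69352913-69353162 on the minus strand, that of Cdk2 at chr10:128705052-128705301 on the minus strand and that of Cdc25a at chr9:109875329-109875578 on the plus strand. Capitals mark matches on either strand to an E2F motif (TTTGGCGC, TTTCCCGC, TTTGCCGC or TTTCGCGC), to the cell cycle homology region or CHR (TTTGAA or TTTAAA) and to the CCAAT box, and no match overlapped another.
Cdk1: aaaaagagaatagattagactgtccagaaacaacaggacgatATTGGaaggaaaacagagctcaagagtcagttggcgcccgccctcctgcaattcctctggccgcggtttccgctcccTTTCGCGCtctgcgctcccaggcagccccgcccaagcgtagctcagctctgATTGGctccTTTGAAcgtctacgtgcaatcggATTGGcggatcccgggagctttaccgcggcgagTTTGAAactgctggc
Cdk2: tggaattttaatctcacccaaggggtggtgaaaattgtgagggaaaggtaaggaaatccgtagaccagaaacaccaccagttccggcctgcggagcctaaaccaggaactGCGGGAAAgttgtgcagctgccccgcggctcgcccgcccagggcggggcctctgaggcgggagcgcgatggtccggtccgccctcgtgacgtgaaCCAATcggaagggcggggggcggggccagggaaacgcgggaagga
Cdc25a: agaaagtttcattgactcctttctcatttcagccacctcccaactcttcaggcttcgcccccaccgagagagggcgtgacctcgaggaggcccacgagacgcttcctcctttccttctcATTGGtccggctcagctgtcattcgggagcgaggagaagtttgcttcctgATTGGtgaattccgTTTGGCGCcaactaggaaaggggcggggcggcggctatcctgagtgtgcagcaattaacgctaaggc

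An E2F match stood in all 3 windows, at 131 bases before the start in Cdk1, 140 in Cdk2 and 67 in Cdc25a. E2F factors are known to drive S phase genes, and 1.86% of the 32851 promoter windows of the same length held such a match. Every E2F sequence used contains CG, and that share was not matched for CG content, in which these 3 windows lie above the median. A CHR match, the element through which the DREAM and MuvB complexes act on mitotic genes, stood 71 and 15 bases before the start of Cdk1 and in neither of the other two windows, against 25.2% of all windows. A CCAAT box was found in each of the 3 windows, 3 times in Cdk1, once in Cdk2 and 2 times in Cdc25a, and in 33.8% of all windows. Promoters were matched for 7 of the 10 genes. Over these 7, the E2F motif stood in 3, the CHR in 4 (Ccnb1, Ccnb2, Ccne1 and Cdk1) and the CCAAT box in 6. The windows held 19 (Cdk1), 21 (Cdk2) and 15 (Cdc25a) CG dinucleotides, beside a median of 6 over all windows. The other matched genes had 34 (Ccne1), 28 (Ccnb1), 10 (Ccnb2), and 11 and 19 in the windows of Ccnd3. High CG counts were thus not particular to the 3 genes shown. The E2F and CCAAT matches were present in Cdk1, lower in siDnmt1, and in Cdk2 and Cdc25a, higher in siDnmt1. Any part of these motifs in the ratios was not tested.

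Ccna2, which encodes the cyclin of S phase and early mitosis, had 15225 counts in siDnmt1 and 18828 in scrambled. It was 1.24-fold lower (1.21 to 1.26), a difference beyond counting error but within the middle 50% of genes, whose log2 ratios ran from -0.67 to 0.57. It overlaps Exosc9, an exosome subunit gene, on the opposite strand, and Exosc9 had 68 counts in siDnmt1 and 101 in scrambled. The B-type cyclins, the mitotic partners of Cdk1, had ratios above 1, where Cdk1 had a ratio below 1. Ccnb1 had 883 counts in siDnmt1 and 787 in scrambled, 1.12-fold higher (1.02 to 1.24). Ccnb2 had 42 counts in siDnmt1 and 27 in scrambled, a ratio of 1.56 with an interval of 0.937 to 2.62 that includes equality. Counts of Ccnb1 are uncertain, since 5 annotated pseudogenes share stretches of 94.4% to 99.2% identity with its transcript. Ccnb2 has a short transcript of 1531 nt, and its log2 ratio was 0.55 as counted and 1.14 once the length trend of all genes was taken out.

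Within each pair of E-type and D-type cyclins the members were compared with each other. Ccne1, the E-type cyclin with more counts, had 1613 counts in siDnmt1 and 2047 in scrambled, 1.27-fold lower (1.19 to 1.36). Ccne2 had 59 counts in siDnmt1 and 43 in scrambled, a ratio of 1.37 with an interval of 0.911 to 2.08. The ratio of Ccne1 to Ccne2 counts was 27.3 in siDnmt1 and 47.6 in scrambled, 1.74-fold lower (1.17 to 2.59). On the log2 scale with 5 added, the ratio of Ccne1 less that of Ccne2 was -0.76 as counted and -0.53 once the length trend was taken out. Ccne2 overlaps Ints8, an Integrator subunit gene, on the opposite strand, and Ints8 had 181 counts in siDnmt1 and 92 in scrambled. Ccnd1, a cyclin that growth signals induce, had 74 counts in siDnmt1 and 105 in scrambled, 1.42-fold lower (1.04 to 1.94). Ccnd3 had 40 counts in siDnmt1 and 63 in scrambled, 1.58-fold lower (1.04 to 2.40). Counts of Ccnd3 are uncertain too, since the pseudogene Ccnd3-ps shares 417 bases of its transcript at 96.6% identity. The D-type pair was close in proportion, with Ccnd1 over Ccnd3 at 1.85 in siDnmt1 and 1.67 in scrambled, and the interval of that difference (0.676 to 1.82) includes equality. Bysl, on the opposite strand of Ccnd3, had 636 counts in siDnmt1 and 386 in scrambled. LTO1, present under its older name Oraov1, lies opposite Ccnd1 and had 143 counts in siDnmt1 and 123 in scrambled.

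The ratio between 2 genes within a library does not depend on how the libraries are scaled, but its difference between libraries can move with transcript length, since short transcripts had lower ratios of siDnmt1 over scrambled in general. Cdk1 had 7.15 counts for each count of Cdk2 in siDnmt1 and 35.7 in scrambled, a proportion 4.99-fold lower in siDnmt1 (4.14 to 6.01, normal interval on the log scale). Cdk1 had the lowest ratio of the 10 genes and 89.1% of all genes compared lay at or above it, so the direction of each proportion to Cdk1 follows from Cdk1 itself and only the size is given. Ccna2 over Cdk1 was 6.06 in siDnmt1 and 2.98 in scrambled, 2.03-fold higher (1.93 to 2.14), and Ccnb1 over Cdk1 was 0.352 in siDnmt1 and 0.125 in scrambled, 2.82-fold higher (2.54 to 3.14). Ccnb2 over Cdk1 was 0.0167 in siDnmt1 and 0.00427 in scrambled, 3.91-fold higher (2.41 to 6.36). With 5 added to each count, the log2 ratio of Ccnb2 exceeded that of Cdk1 by 1.88 as counted and by 2.57 once the length trend was taken out. Cdk2 had the highest ratio of the 10, with 87.0% of all genes at or below it, which fixes the direction of proportions to Cdk2 in the same way. Ccna2 over Cdk2 was 43.4 in siDnmt1 and 106 in scrambled, 2.45-fold lower (2.04 to 2.94), and Ccne1 over Cdk2 was 4.60 in siDnmt1 and 11.6 in scrambled, 2.52-fold lower (2.08 to 3.05). On the log2 scale with 5 added, the ratio of Ccne1 less that of Cdk2 was -1.31, and -1.07 without the length trend. Ccne2 over Cdk2 was 0.168 in siDnmt1 and 0.243 in scrambled, a ratio of 0.692 whose interval includes equality (0.449 to 1.07). Cdc25a kept a similar proportion to Cdk2, at 5.50 in siDnmt1 and 5.80 in scrambled (ratio 0.948, 0.779 to 1.15), but was 4.73-fold higher relative to Cdk1 (4.33 to 5.17). These intervals leave out the spread between pools of embryos, and 29.1% of all genes compared were at least 2-fold apart in either direction.

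**Figure D3:**
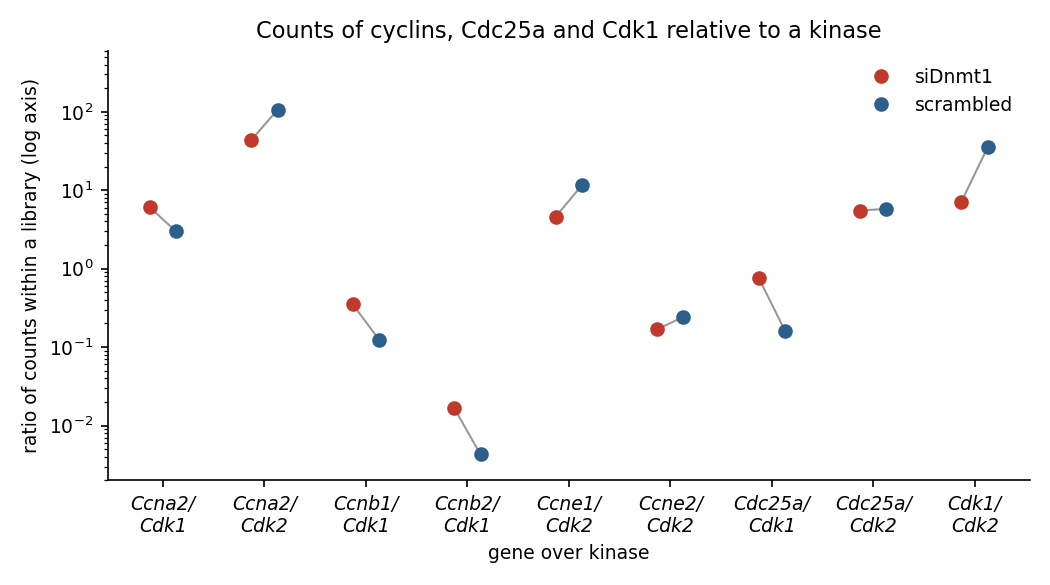
Ratio of counts of each gene to Cdk1 or Cdk2 within the siDnmt1 library (red) and the scrambled library (blue), on a log axis. Ratios to Cdk1 are higher in siDnmt1 for Ccna2, Ccnb1, Ccnb2 and Cdc25a, and Ccna2, Ccne1 and Cdk1 are lower relative to Cdk2.

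Levels of different genes were compared as counts per kilobase of the longest annotated transcript. Ccna2 was highest in both libraries, at 5135 counts per kb in siDnmt1 and 6350 in scrambled. In siDnmt1 it was followed by Ccne1 (806.5 counts per kb, 768 to 847), Cdk1 (574, 552 to 597) and Cdc25a (514, 491 to 537). In scrambled, Cdk1 came second (1444, 1409 to 1480) and Ccne1 after it (1023.5, 980 to 1069), so these 2 genes changed places. Ccnb1 had 355 counts per kb in siDnmt1 and 316 in scrambled, below Cdc25a in siDnmt1 and above it in scrambled, where Cdc25a had 273. Cdk2 was sixth in both, at 108 counts per kb in siDnmt1 and 54.2 in scrambled. The other 4 genes were the D-type cyclins, Ccnb2 and Ccne2, at 10.4 to 27.4 counts per kb in siDnmt1 and 14.3 to 28.1 in scrambled. Among these 4 the intervals of neighbours overlapped, except between Ccnd3 (up to 14.1) and Ccne2 (from 14.9) in siDnmt1, by this length. The longest transcript of Cdk2, Cdc25a and Ccnd3 is a form with a retained intron. By the longest protein-coding transcript, the 6 highest genes kept their order in both libraries. By that length Ccnd3 had 18.9 counts per kb in siDnmt1, next to Ccne2 at 19.6, and 29.8 in scrambled, above Ccnd1 at 28.1, so its place among the lower 4 depends on the transcript chosen. No library here tells which transcript forms the embryos used.

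Across all genes compared, log2 ratios were lower for short transcripts. Of 5 classes of nearly equal size, the one with the shortest transcripts (346 to 2330 nt) had a median of -0.53 and the one with the longest (5779 nt or more) had 0.18. Of the 10 genes, Ccnb2 and Ccne1 fell in the shortest class. After removal of this trend Ccne1 lay close to equality, at -0.06 after removal and -0.34 before. Cdk1, at 4375 nt, had a log2 ratio of -1.43 after removal and -1.33 before. Cdk2 had 1.01 after removal and 0.97 before, and Cdc25a had 0.89 after removal and 0.91 before.

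**Figure D4:**
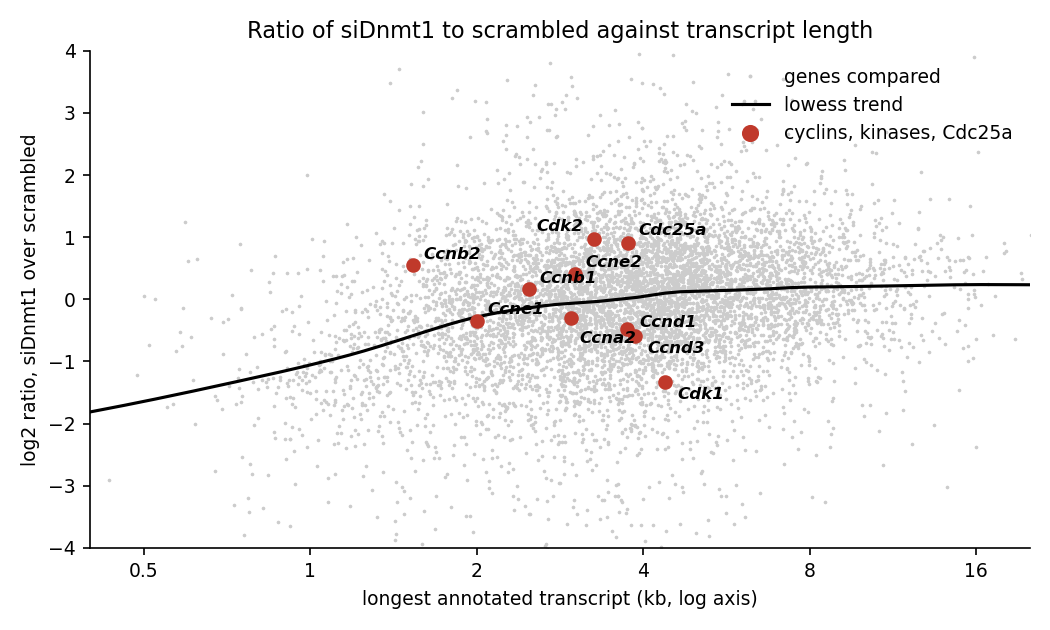
Log2 ratio of siDnmt1 over scrambled (5 added to each count) against the length of the longest annotated transcript, on a log axis. Grey points are the genes compared, the line is their lowess trend, and red points are the 10 genes, with Cdk1 at -1.33 below the trend and Cdk2 at 0.97 and Cdc25a at 0.91 above it.

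Beyond the 10 genes, the rest of the network was described by lists of cyclins, CDKs and their regulators. Each list is to be read beside all genes compared, of which 12.5% were at least 2-fold higher, 16.7% at least 2-fold lower and 3718 of 7315 had a log2 ratio below 0. The other cyclins had 20 genes in the table, of which 12 passed a mean of 20 counts, with 1 higher in siDnmt1 by 2-fold or more, 2 lower and a median log2 ratio of -0.32. Ccnl1, a cyclin tied to splicing, had 179 counts in siDnmt1 and 57 in scrambled, 3.14-fold higher (2.32 to 4.31). Ccnyl1, a relative of the membrane cyclin Y, had 18 counts in siDnmt1 and 106 in scrambled, 5.89-fold lower (3.55 to 10.3), and Ccnj had 31 counts in siDnmt1 and 100 in scrambled, 3.23-fold lower (2.14 to 4.995). Ccna1, the A-type cyclin of germ cells, was at 0 in both libraries, so Ccna2 was the only A-type cyclin with counts. Ccnd2 had 15 counts in siDnmt1 and 4 in scrambled, below the filter. Ccnb3, a further B-type cyclin, had 548 counts in siDnmt1 and 326 in scrambled, 1.68-fold higher (1.46 to 1.93), and was chosen after its value was seen.

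The other CDKs had 12 of 21 genes above the filter, with 2 higher by 2-fold or more, 1 lower and a median log2 ratio of 0.31. Cdk17 had 137 counts in siDnmt1 and 15 in scrambled, 9.13-fold higher (5.35 to 16.8). Cdk13, a kinase of the RNA polymerase II tail, had 161 counts in siDnmt1 and 70 in scrambled, 2.30-fold higher (1.73 to 3.09). Cdk19, a Mediator kinase, had 47 counts in siDnmt1 and 111 in scrambled, 2.36-fold lower (1.67 to 3.40). Cdk4, the partner of D-type cyclins, had 197 counts in siDnmt1 and 156 in scrambled, 1.26-fold higher (1.02 to 1.57), while Cdk6 had 3 counts in siDnmt1 and 2 in scrambled. Of these 12 kinases, 8 had a log2 ratio above 0, as did 3560 of all 7315 genes compared.

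A list of CDK activators, assisting proteins and phosphatases had 7 of 11 genes above the filter and a median log2 ratio of 0.08. Its phosphatases included Cdc14a, Cdc14b and Ppm1d beside the Cdc25 genes, so it is not a list of activators alone. Cks2, a small docking subunit that binds Cdk1, was the only gene at least 2-fold apart. It had 91 counts in siDnmt1 and 321 in scrambled, 3.53-fold lower (2.79 to 4.50). Its log2 ratio lay within 2-fold after removal of the length trend. Of the other Cdc25 genes, Cdc25b had 104 counts in siDnmt1 and 139 in scrambled, 1.34-fold lower (1.03 to 1.74). Cdc25c had 197 counts in siDnmt1 and 176 in scrambled, with an interval that includes equality.

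Inhibitors of CDKs and kinases that restrain them had 5 of 14 genes above the filter, with 2 higher by 2-fold or more, 1 lower and a median log2 ratio of 0.56. Without the filter that median was 0.11 with 2 lower genes, beside 2122 lower of all 23418 genes. At a mean of 100 counts or more it was 1.22 with 0 lower genes, beside 482 lower and 395 higher of all 4233 genes compared. That filter kept Cdkn1a, Chek1 and Chek2 and dropped Wee2, so 1.22 is the log2 ratio of Cdkn1a itself. Chek1, the checkpoint kinase that targets Cdc25a for destruction, had 1594 counts in siDnmt1 and 638 in scrambled, 2.50-fold higher (2.28 to 2.74). Cdkn1a, which encodes the CDK inhibitor p21, had 1034 counts in siDnmt1 and 440 in scrambled, 2.35-fold higher (2.10 to 2.63). Wee2, the oocyte form of Wee1, had 26 counts in siDnmt1 and 101 in scrambled, 3.88-fold lower (2.50 to 6.23). Wee1 itself had 63 counts in siDnmt1 and 60 in scrambled. The INK4 inhibitor genes Cdkn2a, Cdkn2b and Cdkn2c were at 0 in both libraries, and Cdkn1b, which encodes p27, had 0 counts in siDnmt1 and 6 in scrambled.

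The Rb and E2F factors act between G1 kinases and S phase genes. Of 19 genes, 14 passed the filter, with 3 higher by 2-fold or more, 2 lower and a median log2 ratio of 0.09. With 20 added to each count, or at a mean of 100 counts or more, 1 was higher and 1 lower. Of all genes compared, 679 of 7315 were higher and 937 lower with 20 added. At the mean of 100, 395 of 4233 were higher and 482 lower. E2f1, an activator that the Rb protein holds in check, had 258 counts in siDnmt1 and 1202 in scrambled, 4.66-fold lower (4.07 to 5.35). E2f2, also an activator, had 49 counts in siDnmt1 and 7 in scrambled, 7.0-fold higher (3.15 to 18.3), and E2f3, another activator, had 17 counts in siDnmt1 and 40 in scrambled, 2.35-fold lower (1.30 to 4.43). The activators thus stood on both sides of equality. Foxm1, a driver of mitotic genes, had 463 counts in siDnmt1 and 224 in scrambled, 2.07-fold higher (1.76 to 2.44). Tfdp2, an E2F partner, had 61 counts in siDnmt1 and 22 in scrambled, 2.77-fold higher (1.68 to 4.74).

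Genes that mark cyclins for destruction, or that control this step, had 21 of 25 above the filter. Of these 21, 1 was higher by 2-fold or more and 5 were lower, with a median log2 ratio of -0.29. At a mean of 100 counts or more the median was 0.04 and 3 were lower, beside 482 lower of all 4233 genes compared at that mean. Of the subunits of the anaphase-promoting complex (APC/C), which ends mitosis by destroying cyclin B, Anapc4 had 1064 counts in siDnmt1 and 232 in scrambled, 4.59-fold higher (3.98 to 5.31). Anapc2 had 110 counts in siDnmt1 and 410 in scrambled, 3.73-fold lower (3.01 to 4.64), and Anapc11 had 9 counts in siDnmt1 and 44 in scrambled, 4.89-fold lower (2.36 to 11.4). Fzr1, an APC/C activator, had 26 counts in siDnmt1 and 115 in scrambled, 4.42-fold lower (2.87 to 7.06). Skp1a, a core part of SCF ubiquitin ligases, had 63 counts in siDnmt1 and 245 in scrambled, 3.89-fold lower (2.94 to 5.21). Fbxo31, an F-box protein known in human cells to target cyclin D1, had 191 counts in siDnmt1 and 420 in scrambled, 2.20-fold lower (1.85 to 2.62). Mitotic kinases and the genes of the PP2A switch had 15 of 16 above the filter, with 0 higher by 2-fold or more, 1 lower and a median of -0.29, and 11 of the 15 had a log2 ratio below 0. Ppp2r2d, a PP2A subunit known from frog eggs to oppose Cdk1 in interphase, had 146 counts in siDnmt1 and 361 in scrambled, 2.47-fold lower (2.04 to 3.02).

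**Figure D5:**
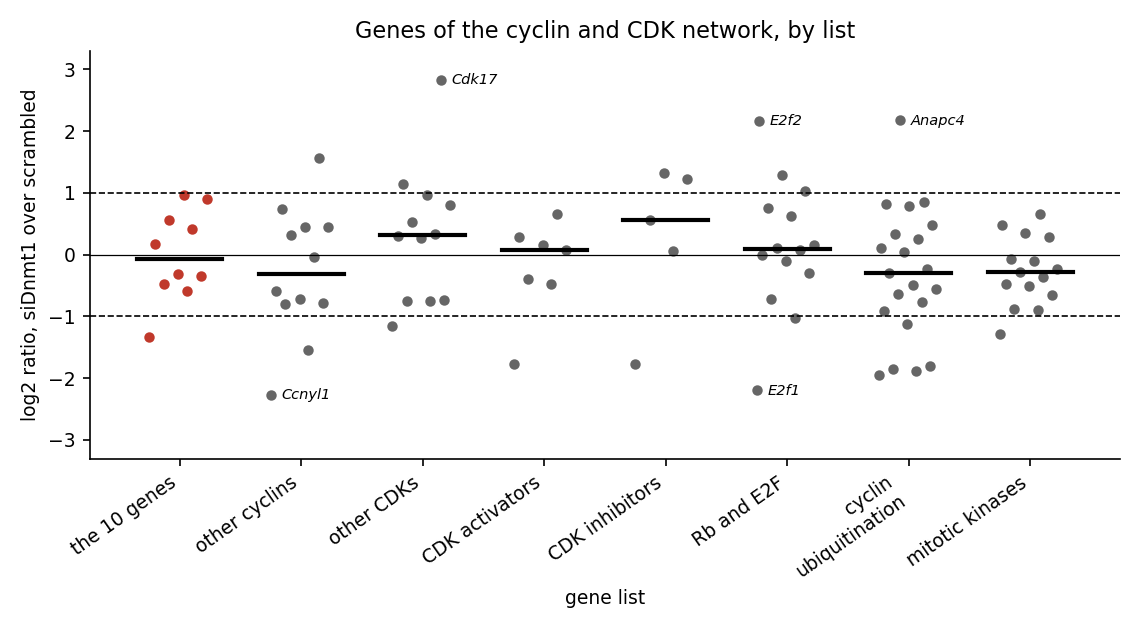
Log2 ratio of siDnmt1 over scrambled (5 added to each count) for each gene averaging 20 counts or more, by list, with black bars at the medians and dashed lines at 2-fold. The 10 genes (red) have a median of -0.07, and genes beyond 4-fold are named. The list marked CDK activators also holds assisting proteins and phosphatases.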

How the data were processed

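Polyadenylated RNA from 1 pool of 20 embryos per group was converted to adapter-tagged cDNA, amplified by 20 PCR cycles and sequenced from both ends, per the labels' protocols. The deposited table holds whole-number counts per gene symbol. Trim Galore, HISAT2, HTSeq, DESeq2 and mm9 are named in the submitters' processing notes without versions. No source used here states the gene annotation or the strand setting. The label calls the table normalised by DESeq2. The size factor recomputed from it was 1 for both columns, which a normalised table would give too. Scaling up by a large enough factor and rounding would skip some low whole numbers, and 0 of those from 1 to 59 were skipped in either column. Scaling down, or up by a small factor, would skip none, so this check cannot exclude normalisation. The values were used as counts as deposited, and the counting intervals assume that they are unscaled. Spreadsheet dates replaced the names of 27 rows, which no list uses.

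With 1 library per group edgeR's quasi-likelihood test has no residual degrees of freedom and was not run. Genes averaging 20 counts or more were compared by log2((siDnmt1 + 5)/(scrambled + 5)), and 2-fold differences were counted. Intervals are 95% Clopper-Pearson intervals of the ratio, Poisson intervals for single counts and normal intervals on the log scale for ratios of ratios. Transcript lengths came from GENCODE M21 for 7270 of 7315 genes (99.4%), with a lowess span of 0.3. Copies were sought at 90% identity over at least 200 bases. Genes named are the 10 members, Dnmt1 and list genes at least 2-fold apart. Further genes were picked for the text once values were known. The members and lists were chosen with earlier results of these data known. Alternatives were other pseudocounts (1 and 20), filters (none and 100 counts), scalings, trends on length and mean count, and a 4-fold limit. Tools were edgeR 4.0.16 and DESeq2 1.42.0 in R 4.3.3, and scipy 1.17.1, statsmodels 0.14.6, pandas 2.3.3 and numpy 2.4.6 in Python 3.11.15.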

Additional observations from a re-analysis of the deposited data

How the results depend on the processing

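Cdk1 remained the only one of the 10 genes at least 2-fold lower under every pseudocount, filter, scaling and trend tried, with log2 ratios of -1.47 to -1.24. At a 4-fold limit 0 of the 10 genes were lower and 0 higher, beside 330 lower and 193 higher of all 7315 genes compared. The count at least 2-fold higher was 0 except in the settings that follow. It was 2 with equal library totals without Rn45s (Cdc25a and Cdk2), beside 1053 of all 7315 genes compared. With the length trend removed it was 2 (Ccnb2 and Cdk2), beside 938 of 7270. With the trend on mean count removed it was 1 (Cdk2), beside 999 of 7315. No gene of the 10 changed the side of equality in 9 settings, and Ccne1 came closest, at -0.06 with the length trend removed. The median log2 ratio of the 10 genes ran from -0.15 (trend on mean count removed) to 0.12 (length trend removed), and Dnmt1 from -0.45 to -0.21. By the longest protein-coding transcript, a choice made after seeing the data, Cdk2 had 146 counts per kb in siDnmt1 and 73.6 in scrambled, and Ccnd3 had 18.9 in siDnmt1 and 29.8 in scrambled. Median log2 ratios of the lists ran from -0.60 to -0.02 (other cyclins), 0.17 to 0.41 (other CDKs), -0.11 to 0.17 (CDK activators and phosphatases) and 0.11 to 1.22 (inhibitors). For the remaining lists they ran from 0.0 to 0.18 (Rb and E2F), -0.44 to 0.04 (cyclin destruction and its control) and -0.36 to -0.20 (mitotic kinases and PP2A). At a mean of 100 counts or more, 0 other cyclins were at least 2-fold lower, and 1 other CDK was higher and 0 lower. Of all 4233 genes compared at that mean, 395 were higher and 482 lower. Of 22 list genes at least 2-fold apart, 6 came within 2-fold in at least 1 setting (Cdk13, Cdk19, Cks2, E2f3, Foxm1 and Tfdp2) and 0 changed direction. No paired analysis was possible because each group had 1 library, and none could be left out. Depth limits Ccnb2, Ccnd3 and Ccne2 most, with 27 to 63 counts per library.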

Other observations

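Some genes named after a cyclin or a CDK, which belong to none of the lists, were read out after their values were seen. Ccndbp1, which encodes a protein that binds D-type cyclins, had 64 counts in siDnmt1 and 13 in scrambled, 4.92-fold higher (95% counting interval 2.68 to 9.74), with 97.1% of genes compared at or below its log2 ratio of 1.94. Cdk5rap2, a centrosome gene, had 123 counts in siDnmt1 and 136 in scrambled. Cdkl4, a CDK-like kinase gene, had 43 counts in siDnmt1 and 82 in scrambled, 1.91-fold lower (1.30 to 2.83). Cdk5rap3 had 13 counts in siDnmt1 and 29 in scrambled, 2.23-fold lower (1.12 to 4.67). Below the filter, Ccnb1ip1 had 0 counts in siDnmt1 and 10 in scrambled, and Cdkal1 had 9 in siDnmt1 and 22 in scrambled. Cdkn3, also below it, had 10 counts in siDnmt1 and 11 in scrambled.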
